A study of Mus musculus with 12 samples.

Results

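The genes described here carry a mouse symbol made of Zfp and a number alone, the naming series for zinc finger proteins, with Zfp36, an mRNA decay factor of another kind, left out. On the array, 304 such genes had a probe set (a group of short probes that together measure one transcript) whose platform annotation names that gene and no other. Of these, 249 passed a filter that asked for a signal over the array's own 40th percentile on at least 3 of the 12 arrays, and these 249 are the members, among 14322 genes measured in all. Where a gene had several probe sets past the filter, the one with the highest mean log2 level stood for it. The remaining 55 genes are not described.

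The study asked how a kidney's gene expression 4 h after a short loss of blood flow depends on Toll-like receptor 4 (TLR4), a receptor of innate immune cells and tubule cells that senses bacterial lipopolysaccharide and products of damaged cells. All 12 animals were male mice aged 8 weeks, and all lost the right kidney. Ischemic animals had the vessels of the left kidney clamped for 23 min, and the kidney was taken after 4 h of reperfusion. Sham animals had the clip laid under the vessels. Wild-type (WT) animals were C57BL/10, and TLR4 null animals were C57BL/10ScNJ, a substrain that lacks Tlr4. There were 3 ischemic and 3 sham kidneys of each genotype, 1 array per kidney, labelled as biological replicates. The genotype came with its substrain, so an effect of TLR4 and one of any other difference between the substrains cannot be told apart.

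Most proteins with these symbols hold an array of C2H2 zinc fingers, small folds that each grip a zinc ion and read a few bases of DNA. The largest class adds a KRAB domain, which recruits the corepressor TRIM28 (KAP1); TRIM28 brings the histone methyltransferase SETDB1 and HP1 proteins and so lays down repressive H3K9 methylation, above all on retroelements and imprinted regions. Many of these genes arose by tandem duplication and lie in clusters of neighbours. Others bear the same kind of name for a finger domain alone and act as promoter-binding activators, cell fate regulators, RNA-binding proteins or ribosome factors.

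Signals were MAS5 intensities, and brightness also depends on the probes, so a difference in signal between genes may not be one in transcript level. Genes are called dim or bright here by signal alone. The members were dim. Their mean signal ranged from 26.9 to 2073 with a median of 127, against a median of 233 over all genes measured. 183 members were over the array's 40th percentile on all 12 arrays, 8 were over it on exactly 3, and 17 on 3 to 5. Among the 8 at that edge were Zfp2, at a mean of 37.3 over all arrays, and Zfp169, at 26.9; just outside the filter, genes passed on 2 arrays or fewer. 4 members passed only through TLR4 null arrays (Zfp28, Zfp418, Zfp709 and Zfp811), 2 only through ischemic arrays (Zfp941 and Zfp983) and 3 only through sham arrays (Zfp94, Zfp661 and Zfp937).

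Across the arrays, the median signal ran from 61.2 to 77.4. Tlr4 itself was dim: its mean signal was 78.9 ± 9.88 (SD, n = 3) in WT sham and 101 ± 31.0 in WT ischemic kidneys, against 37.9 ± 28.0 in TLR4 null sham and 38.7 ± 24.8 in TLR4 null ischemic kidneys. The null arrays were below the WT arrays of the same surgery without overlap, although the difference did not pass the test (limma, adjusted p = 0.492 between shams and 0.291 between ischemic kidneys). Proximal tubule markers were bright on every array, with a summed signal of 44292 to 55581 over 5 of 5 genes. Of these, Lrp2 was called lower after ischemia in both genotypes (-0.33 in WT and -0.52 in null kidneys), and the other markers were not called. The neutrophil markers S100a8 and S100a9 were called higher after ischemia in both genotypes, while Mpo, the other one measured, gave -0.33 in WT and -0.12 in null kidneys and was not called. The summed signal of the 3 of 5 neutrophil markers measured (Cxcr2 and Ly6g were not) was 796 to 1271 in WT ischemic and 347 to 468 in WT sham kidneys, and 445 to 615 and 233 to 302 in the TLR4 null kidneys. Endothelial markers, 4 of 4 measured, summed to 1058 to 1317 in WT ischemic against 1464 to 1557 in WT sham kidneys, and to 987 to 1113 against 1284 to 1381 in the null. The markers were split. Tek was called lower in both genotypes (-1.07 in WT and -1.28 in null kidneys) and Kdr in null kidneys alone (-0.27 and -0.42). Pecam1 (-0.05 and 0.07) and Cdh5 (0.19 and 0.39) were not called. The ratio of 3′ to 5′ actin probes was 1.88 to 1.99 in WT ischemic and 1.68 to 1.82 in WT sham kidneys, and 1.73 to 2.01 and 1.75 to 1.85 in the null. The probe set for the 3′ end of 18S rRNA read 1410 to 2646 in null ischemic kidneys and 304 to 574 elsewhere. The part of any of these in the results below was not tested. In whole kidney, fewer cells of a type and less RNA per cell cannot be told apart.

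Ischemia changed a minority of the zinc finger genes, and in the deposited scaling more calls were downward than upward. A gene was called where limma's moderated test gave a Benjamini-Hochberg adjusted p under 0.05 over all 14322 genes. In WT kidneys, 32 of the 249 members were called (12.9%), 13 higher and 19 lower after ischemia, beside 19.6% of all genes (9.17% higher and 10.5% lower). In TLR4 null kidneys, 40 were called (16.1%), 13 higher and 27 lower, beside 21.6% of all genes (9.86% higher and 11.7% lower). The median member difference, ischemic minus sham on the log2(signal + 15) scale, was -0.16 in WT and -0.12 in null kidneys, where the medians of all genes were -0.09 and -0.07. Counted by arrays instead, 110 members (44.2%) had WT groups that did not overlap, beside 39.3% of all genes, and 76 (30.5%) had null groups that did not, beside 34% of all genes. 158 members were below 0 in WT kidneys and 162 in null kidneys. That left 36.55% of members above 0 in WT and 34.94% in null kidneys, beside 39.76% and 41.68% of all genes.

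The share of calls that were upward moved with the scaling of the arrays. As deposited, 40.6% of the WT calls and 32.5% of the null calls were higher after ischemia. With each array scaled to the same median over its probe sets, the WT calls were 13 higher and 8 lower (61.9% higher) and the null calls 12 higher and 15 lower (44.4% higher). In null kidneys the calls were 11 higher and 11 lower with only the null arrays in the fit, and 12 higher and 12 lower without null sham replicate 3. With median scaling the member medians were -0.08 in WT and -0.11 in null kidneys. Counts also moved when 1 array was left out. The WT members called higher numbered 8 without WT ischemic replicate 1, 7 without WT ischemic replicate 2, 8 without WT sham replicate 1 and 8 without WT sham replicate 3. The WT members called lower numbered 11 without WT sham replicate 2. The null members called lower numbered 17 without null ischemic replicate 3, 16 without null sham replicate 1 and 12 without null sham replicate 3.

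How often a member was called went with how bright it was. All genes were split into 4 equal groups by mean log2 level, and 76 members fell in the dimmest group, 106 in the next, 53 in the one above and 14 in the brightest. In WT kidneys 3.95% of the members of the dimmest group were called, beside 3.99% of all its genes. In the next group it was 13.2% beside 13.4%. In the brighter groups it was 15.1% (8 of 53) beside 24.9%, and then 50% (7 of 14) beside 36.3%. In null kidneys the members' shares were 3.95%, 17.0%, 24.5% and 42.9%, beside 4.50%, 14.2%, 26.7% and 40.9% of all genes. In the dimmer groups the members' shares were near those of all genes, and the widest gaps, in opposite directions, were in the 2 brighter WT groups.

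**Figure D1:**
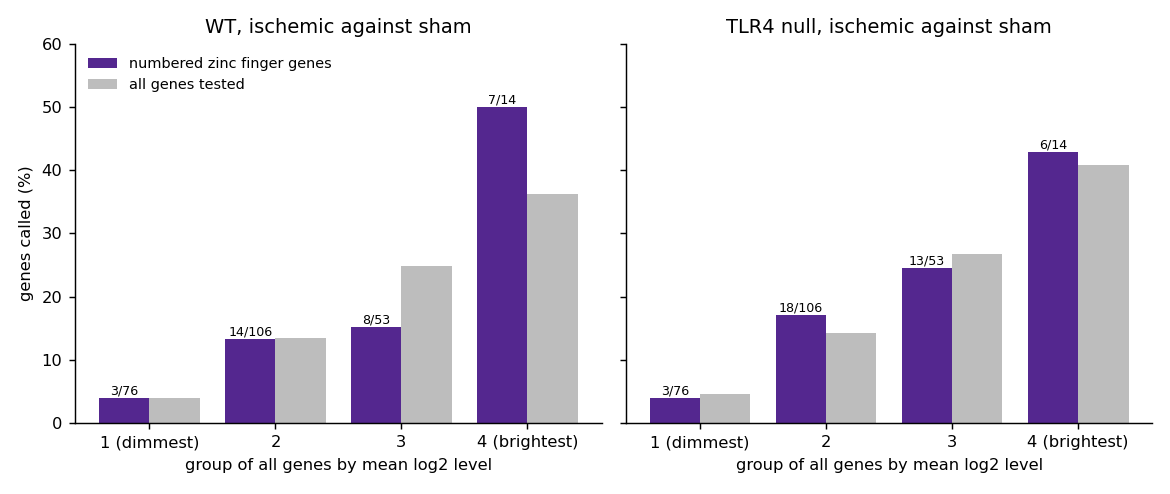
Percentage of genes called in ischemic against sham kidneys (y axis) in each of 4 equal groups of all genes by mean log2 level (x axis), WT left and TLR4 null right, with numbered zinc finger genes in purple and all genes tested in grey; labels give members called over members. The purple and grey bars rise together, from 3.95% and 3.99% in the dimmest WT group to 50% and 36.3% in the brightest.

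The calls were mostly small in size. The median size of a called member difference was 0.57 in WT and 0.64 in null kidneys on the log2 scale, beside 0.59 and 0.58 over all called genes. In WT kidneys 4 called members changed at least 2-fold (Zfp948 higher; Zfp60, Zfp882 and Zfp763 lower), and in null kidneys 3 did (Zfp937, Zfp467 and Zfp647, all lower). Of all called genes, 17.7% and 17.1% changed at least 2-fold.

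17 members were called the same way in both genotypes, 7 higher and 10 lower, and no member was called in opposite directions. The higher set was Zfp52, Zfp131, Zfp142, Zfp367, Zfp623, Zfp703 and Zfp948, which is 53.8% of the 13 WT rises and 53.8% of the 13 null rises. The lower set was Zfp24, Zfp101, Zfp106, Zfp251, Zfp369, Zfp618, Zfp763, Zfp799, Zfp810 and Zfp871, which is 52.6% of the 19 WT falls and 37.0% of the 27 null falls. Over all genes the shared calls were 76.1% of the WT rises and 70.8% of the null rises, and 62.1% and 55.6% of the falls. The ischemic and sham arrays of each genotype are separate animals, so these 2 comparisons share no sample. They do share the error estimate of a fit to all arrays, so their calls are not independent. The null calls of Zfp106, Zfp251, Zfp618 and Zfp623 were lost without some WT arrays, and the WT call of Zfp810 without some null arrays. With only a genotype's own arrays in the fit, 30 of the 32 WT calls and 21 of the 40 null calls were kept. 8 of the 17 kept both calls whichever single array was left out: Zfp24, Zfp52, Zfp101, Zfp131, Zfp367, Zfp763, Zfp799 and Zfp871. 4 of them (Zfp52, Zfp131, Zfp101 and Zfp799) kept both calls under the other settings run as well.

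**Figure D2:**
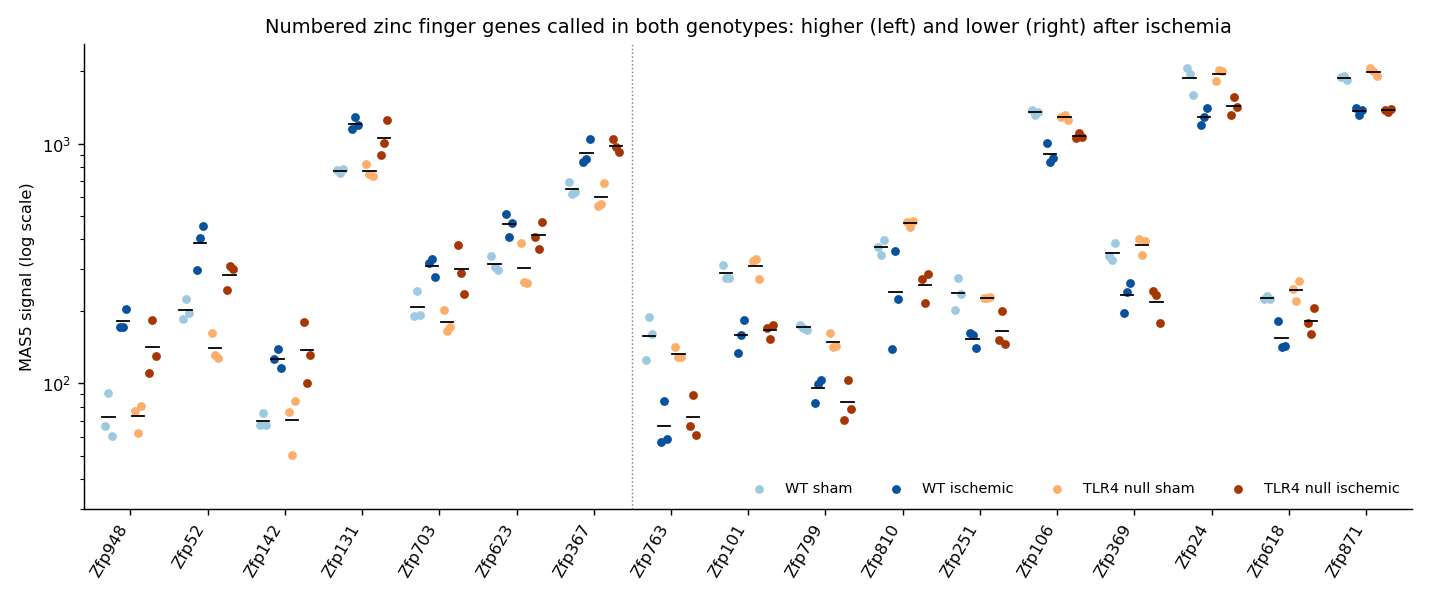
MAS5 signal (y axis, log scale) of the 17 members called in both genotypes, with 1 point per kidney, 3 per group, and the group mean as a bar; genes left of the dotted line were higher after ischemia and genes right of it lower. For Zfp52 and Zfp101 the dark ischemic points of each genotype lie clear of its pale sham points, while for Zfp810 the WT points overlap.

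The 250 bases upstream of the start are shown for the shared rises Zfp52 and Zfp948 and for the shared falls Zfp101 and Zfp799, all on chromosome 17, as they hold the promoters of members that moved together. They are from RefSeq on GRCm38.p6 and read 5′ to 3′ on the gene's strand, with capitals for matches to GGGCGG (SP1 box) or CCAAT (NF-Y box) on either strand. Zfp52 lies at chr17:21535289-21535538 (plus strand), Zfp948 at chr17:21566728-21566977 (plus), Zfp101 at chr17:33394638-33394887 (minus) and Zfp799 at chr17:32830262-32830511 (minus).
Zfp52: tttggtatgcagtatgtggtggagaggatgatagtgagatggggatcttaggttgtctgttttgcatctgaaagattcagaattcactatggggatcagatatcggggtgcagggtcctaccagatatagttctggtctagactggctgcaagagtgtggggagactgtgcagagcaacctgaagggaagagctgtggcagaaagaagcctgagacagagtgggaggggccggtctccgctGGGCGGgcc
Zfp948: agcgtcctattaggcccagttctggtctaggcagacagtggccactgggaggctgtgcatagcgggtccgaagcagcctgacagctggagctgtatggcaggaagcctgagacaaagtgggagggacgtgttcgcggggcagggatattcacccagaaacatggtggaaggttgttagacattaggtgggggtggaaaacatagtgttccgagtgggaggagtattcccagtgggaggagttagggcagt
Zfp101: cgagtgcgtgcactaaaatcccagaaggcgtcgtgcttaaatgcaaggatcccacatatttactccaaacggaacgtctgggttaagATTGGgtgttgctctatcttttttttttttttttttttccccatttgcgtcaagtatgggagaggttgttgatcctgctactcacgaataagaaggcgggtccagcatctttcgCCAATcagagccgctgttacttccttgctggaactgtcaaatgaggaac
Zfp799: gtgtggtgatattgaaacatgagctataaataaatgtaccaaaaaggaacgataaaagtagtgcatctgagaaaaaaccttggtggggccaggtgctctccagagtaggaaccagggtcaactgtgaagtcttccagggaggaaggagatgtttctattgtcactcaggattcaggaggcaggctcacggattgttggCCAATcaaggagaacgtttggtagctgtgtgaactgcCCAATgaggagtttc

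In the 250 bases printed, Zfp52 held 1 GGGCGG and Zfp948 neither motif, while Zfp101 and Zfp799 each held 2 CCAAT matches. Windows of 300 bases (250 before to 50 after the start) were found for 207 of the 249 members and searched on both strands for TGANTCA (AP-1), TGACGTCA (CRE), CCAAT and, beside it, GGGCGG. In this longer window Zfp52 held CCAAT as well, and Zfp948 still held neither CCAAT nor GGGCGG. Of the 207 members 49.3% held CCAAT and 53.1% GGGCGG, against 42.1% and 63.3% of the 11443 tested genes with a window. AP-1 letters stood in 5.31% of members and 6.95% of tested genes and CRE letters in 3.86% and 3.17%. Of the 7 shared falls with a window 6 held CCAAT (85.7%) and 5 GGGCGG, and of the 5 shared rises with a window 3 held CCAAT and 4 GGGCGG. With so few genes these shares are descriptions.

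Zfp52 and Zfp948, neighbours in a cluster of KRAB-type genes on chromosome 17, were the largest shared rises in WT kidneys. Zfp52 signals were 296, 405 and 452 in WT ischemic and 185, 224 and 196 in WT sham kidneys, and 244, 309 and 299 in null ischemic and 163, 132 and 128 in null sham kidneys. No ischemic kidney overlapped the shams of its genotype. The log2 difference was 0.86 ± 0.16 (SE; limma, adjusted p = 0.00138) in WT and 0.94 ± 0.16 (adjusted p = 0.000662) in null kidneys. The other Zfp52 probe set differed by 0.34 in WT and 0.40 in null kidneys, neither called. Zfp948 read 171, 173 and 205 in WT ischemic and 66.5, 90.9 and 60.4 in WT sham kidneys, and 111, 183 and 129.7 against 76.9, 62.1 and 80.6 in the null. Its difference was 1.19 ± 0.20 (adjusted p = 0.000726) in WT and 0.80 ± 0.20 (adjusted p = 0.0103) in null kidneys. The groups did not overlap in either genotype, and the null call was lost without null ischemic replicate 2 (adjusted p = 0.0561).

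The other shared rises were in genes of more varied kinds. Zfp131 encodes a transcription factor with a BTB domain beside its fingers. Its signals were 1146, 1284 and 1200.3 in WT ischemic and 775, 750.2 and 785 in WT sham kidneys, and 892, 1004 and 1258 against 819, 746 and 730.3 in the null. All ischemic kidneys were above all shams, by 0.64 ± 0.11 (adjusted p = 0.000728) in WT and 0.44 ± 0.11 (adjusted p = 0.00981) in null kidneys. Zfp367 read 836, 861 and 1040.0 in WT ischemic against 692, 616 and 631 in WT sham kidneys, and 1047, 963 and 926 against 547, 561 and 686 in the null. The 6 ischemic kidneys all lay above the 6 shams. The differences of Zfp367 were 0.48 ± 0.11 (adjusted p = 0.00593) in WT and 0.70 ± 0.11 (adjusted p = 0.000347) in null kidneys. Its other, dimmer probe set differed by 0.34 and 0.32, neither called.

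Zfp703 encodes a nuclear cofactor of the same small family as Zfp503, known from epithelial growth and development. It read 318, 331 and 279 in WT ischemic and 191, 242 and 193 in WT sham kidneys, and 378, 288 and 236 against 202, 165 and 172 in the null. The groups did not overlap, with a difference of 0.54 ± 0.16 (adjusted p = 0.0287) in WT and 0.68 ± 0.16 (adjusted p = 0.00731) in null kidneys. The WT call was lost without any one of 4 arrays, WT ischemic replicates 1 and 2 and WT sham replicates 1 and 3 (adjusted p 0.0835 to 0.101). Zfp142 encodes a protein with an unusually long array of fingers. It differed by 0.74 ± 0.22 (adjusted p = 0.027) in WT and 0.83 ± 0.22 (adjusted p = 0.0139) in null kidneys, without overlap. The WT call of Zfp142 was lost without any one of 5 arrays (all WT arrays but ischemic replicate 3; adjusted p 0.0501 to 0.0847) and its null call without null ischemic replicate 1 or null sham replicate 2 (0.0638 to 0.0786). Zfp623 differed by 0.53 ± 0.15 (adjusted p = 0.02) in WT and 0.44 ± 0.15 (adjusted p = 0.0446) in null kidneys, where 1 sham kidney at 384 lay inside the ischemic range of 365 to 471. Its WT call was lost without any one of 4 arrays, WT ischemic replicates 1 and 3 and WT sham replicates 2 and 3 (0.0592 to 0.0864), and its null call without any one of 8 arrays, all but WT ischemic replicates 1 and 2, null ischemic replicate 2 and null sham replicate 1 (0.0532 to 0.167).

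Among the shared falls, Zfp101 and Zfp799 moved by nearly the same amount in both genotypes. Zfp101 read 134, 159 and 183 in WT ischemic and 313, 274 and 276 in WT sham kidneys, and 171, 153 and 175 against 323, 330.3 and 272 in the null. All ischemic kidneys lay below all shams. Its difference was -0.81 ± 0.14 (adjusted p = 0.000655) in WT and -0.83 ± 0.14 (adjusted p = 0.000486) in null kidneys. Its other, dimmer probe set differed by -0.56 and -0.67, neither called. Zfp799 read 83.3, 99.4 and 103 in WT ischemic and 175, 170.3 and 168 in WT sham kidneys, and 70.3, 103 and 77.9 against 162, 141 and 143 in the null, again without overlap. Its difference was -0.76 ± 0.17 (adjusted p = 0.00429) in WT and -0.74 ± 0.17 (adjusted p = 0.00466) in null kidneys.

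Zfp106 encodes an RNA-binding protein that motor neurons and muscle need. Its signals were 1008, 836 and 871 in WT ischemic and 1376, 1313 and 1354 in WT sham kidneys, and 1051, 1105 and 1063 against 1289, 1321 and 1249.8 in the null. The groups did not overlap, with a difference of -0.57 ± 0.08 (adjusted p = 0.000188) in WT and -0.26 ± 0.08 (adjusted p = 0.0384) in null kidneys. The null call was lost without any one of 9 arrays, the 6 null arrays and the 3 WT shams (adjusted p 0.0502 to 0.108). Zfp369, named for its binding to the p75 neurotrophin receptor, read 197, 239.9 and 262 in WT ischemic and 338, 327 and 384 in WT sham kidneys, and 242, 233 and 178 against 401, 344 and 391 in the null. The groups did not overlap. The difference of Zfp369 was -0.56 ± 0.14 (adjusted p = 0.0104) in WT, a call lost without WT ischemic replicate 1 or WT sham replicate 3 (0.0533 to 0.0561), and -0.77 ± 0.14 (adjusted p = 0.00117) in null kidneys.

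Zfp763 differed by -1.09 ± 0.20 (adjusted p = 0.0014) in WT and -0.77 ± 0.20 (adjusted p = 0.0132) in null kidneys. Its signals were 56.8, 84.1 and 58.4 in WT ischemic and 125, 189 and 161 in WT sham kidneys, and 66.8, 89.3 and 61.0 against 141, 128 and 128 in the null, with no overlap. The 2 probe sets of Zfp763 gave opposite answers in WT kidneys, since the other and dimmer one rose by 1.52 ± 0.49 (SE; adjusted p = 0.0476 over all probe sets) and read -0.91 ± 0.49 in the null, which was not called. Zfp251 differed by -0.58 ± 0.15 (adjusted p = 0.0123) in WT, lost without WT ischemic replicate 3 or WT sham replicate 2 (0.0523 to 0.0668), and by -0.44 ± 0.15 (adjusted p = 0.0495) in null kidneys. The null call of Zfp251 was lost without any one of 9 arrays, all but WT sham replicates 1 and 2 and null ischemic replicate 2 (0.0536 to 0.141).

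Zfp810 read 139.5, 356 and 226 in WT ischemic and 369, 343 and 398 in WT sham kidneys, and 273, 216 and 285 against 469, 449 and 475 in the null. One WT ischemic kidney, at 356, lay among the WT shams, while the null groups did not overlap. Zfp810 differed by -0.68 ± 0.22 (adjusted p = 0.0428) in WT and -0.82 ± 0.22 (adjusted p = 0.0151) in null kidneys. Its WT call was lost without any one of 9 arrays, all but WT ischemic replicate 2 and null ischemic replicates 2 and 3 (0.051 to 0.188), and its null call without null ischemic replicate 2 (0.0599). Zfp24, Zfp618 and Zfp871 completed the shared falls and were named for that after their values were seen. Zfp24, which myelinating cells of the brain need, differed by -0.52 ± 0.11 (adjusted p = 0.00266) in WT and -0.45 ± 0.11 (adjusted p = 0.0072) in null kidneys. The bright gene Zfp871 had the smallest error of the shared falls, with 1406, 1317 and 1384 in WT ischemic against 1898, 1903 and 1835 in WT sham kidneys and 1376, 1359 and 1394 against 2060.1, 2003 and 1919.8 in the null. It differed by -0.45 ± 0.07 (adjusted p = 0.000315) in WT and -0.53 ± 0.07 (adjusted p = 7.94e-05) in null kidneys. Zfp618 differed by -0.52 ± 0.14 (adjusted p = 0.0162) in WT and -0.41 ± 0.14 (adjusted p = 0.0474) in null kidneys. Its WT call was lost without WT ischemic replicate 2 or 3 or WT sham replicate 2 (0.0523 to 0.0627), and its null call without any one of 9 arrays, all but WT ischemic replicate 1, null ischemic replicate 3 and null sham replicate 2 (0.0514 to 0.159).

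15 members were called in WT kidneys alone and 23 in null kidneys alone, which leaves 194 called in neither. Over all genes, 1313 were called higher and 1501 lower in WT kidneys, and 1412 higher and 1676 lower in null kidneys. The genotypes shared 999 of those rises and 932 of those falls. Across the 249 members the responses of the genotypes had the same sign in 175 (70.3%; 74.4% over all genes), with a Pearson correlation of 0.593 across members and 0.726 across all genes. These are descriptions across genes of the same arrays. Of the WT-called members 31 of 32 had the same sign in null kidneys, and of the null-called members 38 of 40 had the same sign in WT kidneys. Signs were not counted over all called genes.

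**Figure D3:**
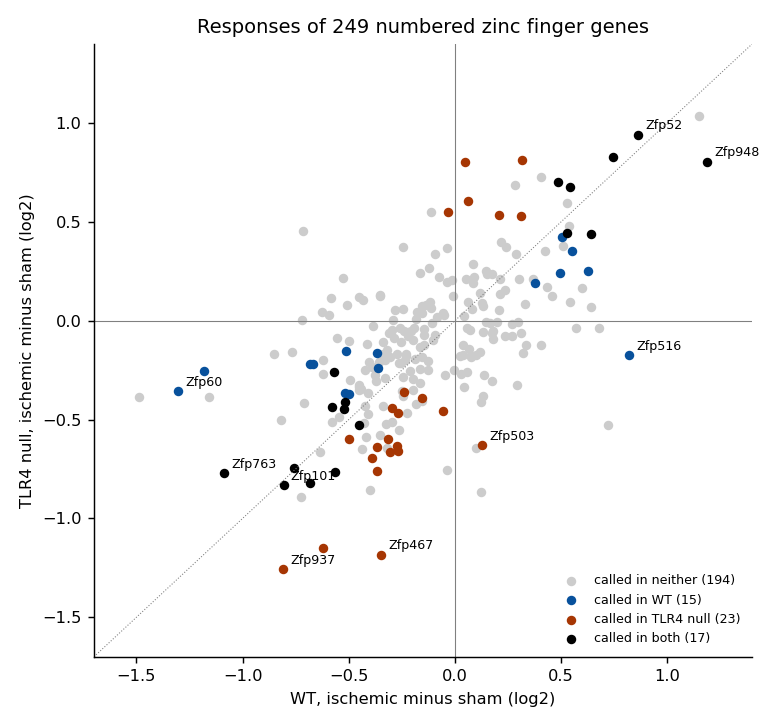
Log2 difference, ischemic minus sham, of each of the 249 members in WT (x axis) and TLR4 null kidneys (y axis), coloured by the genotypes in which it was called; the dotted line marks equal responses. The 17 members called in both lie in the lower left and upper right, and Zfp516, Zfp60, Zfp467 and Zfp503 lie far from the line.

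Zfp655, by its brightest probe set, was called higher in WT kidneys alone. It read 949.5, 925 and 914 in WT ischemic and 581, 583 and 628 in WT sham kidneys, and 809.7, 843 and 717 against 702, 602 and 676 in the null. No group overlapped the shams of its genotype. The difference was 0.63 ± 0.09 (adjusted p = 0.000198) in WT and 0.25 ± 0.09 (adjusted p = 0.064) in null kidneys. A second Zfp655 probe set was called higher in both genotypes (1.06 ± 0.21, SE; adjusted p = 0.00254 over all probe sets in WT; 0.86 ± 0.21; 0.0102 in the null), and the remaining one, at 0.77 and 0.43, in WT alone. Zfp64, a promoter-binding activator, gave 0.55 ± 0.13 (adjusted p = 0.00583) in WT and 0.35 ± 0.13 (adjusted p = 0.0605) in null kidneys. Zfp451, a SUMO ligase, gave 0.51 ± 0.15 (adjusted p = 0.0281) and 0.42 ± 0.15 (adjusted p = 0.0606), and its WT call was lost without any one of the 6 WT arrays (0.0568 to 0.0825).

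The largest WT-alone falls were in dim genes. Zfp60 read 38.1, 7.58 and 17.7 in WT ischemic and 59.9, 66.3 and 82.2 in WT sham kidneys, and 45.6, 29.6 and 27.0 against 44.9, 46.1 and 50.2 in the null. The WT groups did not overlap and the null groups did. It differed by -1.31 ± 0.33 (adjusted p = 0.0116) in WT, lost without WT sham replicate 3 (0.0562), and by -0.36 ± 0.33 (adjusted p = 0.513) in null kidneys. Zfp882 read 6.85, 13.4 and 32.6 in WT ischemic and 58.4, 44.7 and 63.6 in WT sham kidneys, without overlap, and differed by -1.18 ± 0.36 (adjusted p = 0.0321). That call was lost without any one of 5 arrays (all WT arrays but ischemic replicate 3; 0.0523 to 0.125), and the null difference was -0.26 ± 0.36 (adjusted p = 0.688). Zfp882 was over the filter's threshold on 4 arrays, 2 of them WT sham and 0 WT ischemic. Within WT it was over only where it was high, so its WT fall carries that selection. Zfp953 gave -0.68 ± 0.20 (adjusted p = 0.0241) in WT and -0.22 ± 0.20 (adjusted p = 0.501) in null kidneys, its WT call lost without any one of 4 arrays, WT ischemic replicates 2 and 3 and WT sham replicates 2 and 3 (0.0537 to 0.108). Zfp383 gave -0.67 ± 0.17 (adjusted p = 0.0124) and -0.22 ± 0.17 (adjusted p = 0.433), while its other probe set differed by 0.31 in WT kidneys.

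Among the rises called in null kidneys alone, Zfp697 read 767, 894 and 526 in ischemic against 399.9, 377 and 422 in sham kidneys. The WT kidneys read 554, 445 and 462 against 407, 380.2 and 373, also without overlap. The difference was 0.81 ± 0.15 (adjusted p = 0.00147) in null and 0.32 ± 0.15 (adjusted p = 0.175) in WT kidneys, but its other, dimmer probe set was called higher in WT (1.90 ± 0.30, SE; adjusted p = 0.000483 over all probe sets) and not in null kidneys (0.88 ± 0.30; 0.0606). The genotype in which Zfp697 was called thus rests on the probe set chosen. Zfp672 gave 0.54 ± 0.15 (adjusted p = 0.016) in null kidneys, lost without null sham replicate 2 (0.0675). Zfp420 gave 0.80 ± 0.24 (adjusted p = 0.0266), lost without any one of 4 arrays, null ischemic replicates 2 and 3 and null sham replicates 2 and 3 (0.0501 to 0.108), and its other probe set differed by -0.38.

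The falls in null kidneys alone included both dim and moderately bright genes. Zfp229 read 97.5, 111 and 54.2 in null ischemic against 142, 157 and 160.5 in null sham kidneys and differed by -0.76 ± 0.20 (adjusted p = 0.0143), lost without null sham replicate 3 (0.0507). WT kidneys read 91.1, 107 and 96.8 against 124, 134 and 135, with a difference of -0.37 ± 0.20 (adjusted p = 0.238). Zfp937, one of the members that passed the filter through sham arrays alone, read 15.6, 35.9 and 3.96 in null ischemic against 53.2, 61.4 and 62.5 in null sham kidneys. Since Zfp937 was over the filter only where it was high, its fall of -1.26 ± 0.39 (adjusted p = 0.031) carries that selection, and it was lost without any one of 5 arrays (all null arrays but ischemic replicate 2; 0.0566 to 0.109). Zfp647 gave -1.15 ± 0.37 (adjusted p = 0.0389), lost without any one of 6 arrays (WT sham replicates 2 and 3, null ischemic replicate 3 and the 3 null shams; 0.0511 to 0.124).

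None of these one-genotype calls stood as a difference between genotypes. The interaction, the null response minus the WT response, called 0 members and 0% of all genes by limma. At an unadjusted p under 0.05 it held 14 members (5.62%) and 6.37% of all genes, and the smallest adjusted p of a member was 0.447. The genotype comparison called 0 members in sham kidneys (0.314% of all genes) and 0 in ischemic kidneys (0.656% of all genes). Unadjusted, 5 members (2.01%) were under 0.05 in sham kidneys and 19 (7.63%) in ischemic kidneys, beside 9.34% and 11.4% of all genes. Leaving out 1 array gave 1 or 2 members called in ischemic kidneys: Zfp503 without WT ischemic replicate 1, Zfp467 without null ischemic replicate 1, and Zfp503 and Zfp697 without null ischemic replicate 3.

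The 5 members with the smallest interaction p were Zfp503, Zfp467, Zfp945, Zfp639 and Zfp516. Zfp503, a developmental repressor, read 1096, 1453 and 1598 in null ischemic and 2152, 2090.1 and 2125 in null sham kidneys, and 1627, 2221 and 2069 against 1776, 1788 and 1802 in WT. The null groups did not overlap and the WT groups did. Its interaction was -0.76 ± 0.18 (adjusted p = 0.447), with -0.63 ± 0.13 (adjusted p = 0.00238) in null and 0.13 ± 0.13 (adjusted p = 0.544) in WT kidneys; its other probe set gave -0.20 and 0.11, neither called. Zfp467, known for steering mesenchymal cells toward fat, read 80.6, 46.2 and 51.9 in null ischemic and 147, 160.5 and 146 in null sham kidneys, and 110.2, 112 and 117 against 166, 142 and 138 in WT. Neither genotype's groups overlapped. Its interaction was -0.84 ± 0.26 (adjusted p = 0.637), with -1.18 ± 0.18 (adjusted p = 0.000285) in null and -0.35 ± 0.18 (adjusted p = 0.213) in WT kidneys. A dimmer probe set of Zfp467 was called lower in WT (-1.22 ± 0.31, SE; adjusted p = 0.0132 over all probe sets) as well as in null kidneys (-0.97 ± 0.31; 0.0408), so the split between genotypes rests on the probe set chosen.

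Zfp945 and Zfp639 were called in null kidneys and not in WT kidneys. Zfp945 read 289, 309 and 359 in null ischemic and 214, 197 and 200.4 in null sham kidneys, and 297, 245 and 303 against 255, 265 and 284 in WT. Zfp639 read 398, 445 and 355 against 216, 307 and 286 in the null and 287, 297 and 322 against 317, 322 and 289 in WT. For both genes the null groups were apart and the WT groups overlapped. The differences of Zfp945 were 0.60 ± 0.12 (adjusted p = 0.00252) in null and 0.06 ± 0.12 (adjusted p = 0.774) in WT kidneys, with an interaction of 0.54 ± 0.17 (adjusted p = 0.637). For Zfp639 they were 0.55 ± 0.13 (adjusted p = 0.00799) and -0.03 ± 0.13 (adjusted p = 0.9), with an interaction of 0.58 ± 0.19 (adjusted p = 0.637).

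Zfp516, a regulator of brown fat genes, read 71.2, 109 and 112 in WT ischemic and 41.5, 46.6 and 55.7 in WT sham kidneys, and 50.9, 42.8 and 38.02 against 52.8, 51.8 and 49.2 in the null. Only the WT ischemic kidneys stood above the rest. It differed by 0.82 ± 0.24 (adjusted p = 0.024) in WT, lost without WT ischemic replicate 2 or 3 or WT sham replicate 1 or 2 (0.0654 to 0.978), and by -0.17 ± 0.24 (adjusted p = 0.674) in null kidneys, with an interaction of -0.99 ± 0.34 (adjusted p = 0.651). Its other probe set differed by -0.07 in WT kidneys. Fat around the kidney can enter a whole-kidney sample, and 3 of 4 fat markers were measured. Their summed signal was 4135 to 11701 in WT ischemic, 4993 to 8291 in WT sham, 2233 to 8445 in null ischemic and 2681 to 5172 in null sham kidneys, with none called in any comparison, and their part in the Zfp467 and Zfp516 values was not tested.

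**Figure D4:**
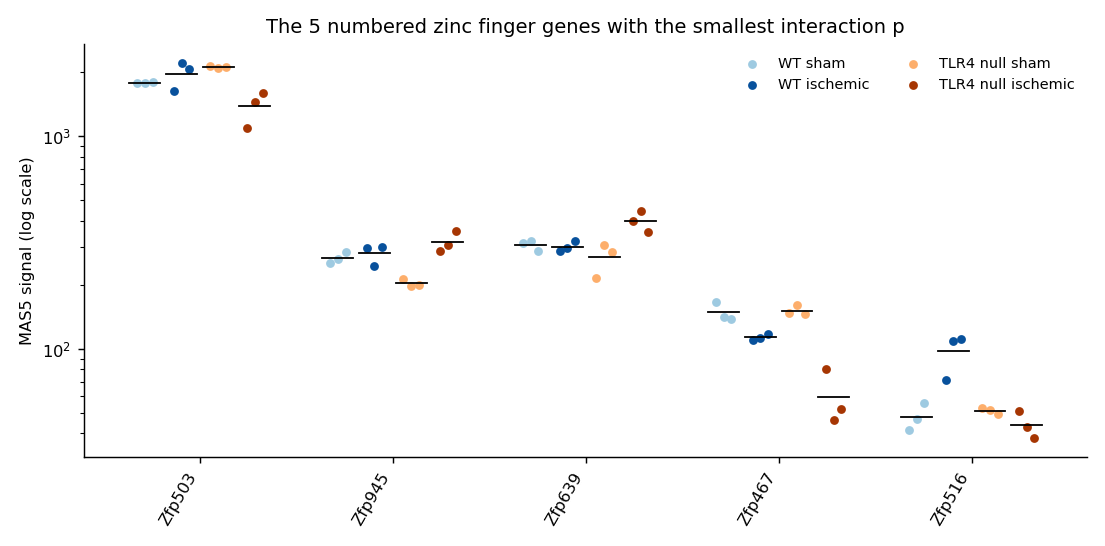
MAS5 signal (y axis, log scale) of the 5 members with the smallest interaction p, 1 point per kidney, 3 per group, with the group mean as a bar. The null ischemic points of Zfp467 lie at 46.2 to 80.6, below all other groups, and the WT ischemic points of Zfp516 lie at 71.2 to 112, above all other groups; no interaction passed the test.

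Zfp811 had the smallest adjusted p of the members for genotype in sham kidneys. It read 50.04, 49.1 and 77.2 in null sham and 6.11, 24.8 and 3.16 in WT sham kidneys, and 29.5, 41.8 and 16.7 against 4.62, 17.8 and 6.99 in the ischemic kidneys. The null kidneys were higher in the sham state without overlap, by 1.55 ± 0.43 (adjusted p = 0.187). The ischemic kidneys overlapped by 1 pair, since the highest WT value was 17.8 and the lowest null value 16.7. Zfp811 passed the filter on null arrays alone, so the filter chose it for being high there.

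Among KRAB proteins known to act at imprints and retroelements, 1 passed the test, in null kidneys. Of 8 listed, 6 were measured (Zfp57 and Zfp819 were not). None was called in WT kidneys, at a median of -0.41 with 2 of 6 above 0, beside 39.8% of all genes above 0. In null kidneys the median was -0.28 with 1 of 6 above 0, beside 41.7% of all genes. There 1 was called lower, beside 11.7% of all genes. That was Zfp961, at -0.69 ± 0.20 (adjusted p = 0.0188) in null and -0.39 ± 0.20 (adjusted p = 0.189) in WT kidneys. Its call was lost without null ischemic replicate 3 or null sham replicate 2 or 3 (0.0610 to 0.0713). Its other probe set differed by -0.03 in null kidneys and was not called. Zfp809, which silences proviruses of murine leukemia virus type, gave -0.49 ± 0.21 (adjusted p = 0.126) in WT and -0.30 ± 0.21 (adjusted p = 0.379) in null kidneys. Zfp708 gave -0.62 ± 0.31 (adjusted p = 0.184) and -0.27 ± 0.31 (adjusted p = 0.61), and Zfp932 gave -0.42 ± 0.56 (adjusted p = 0.657) and -0.43 ± 0.56 (adjusted p = 0.655). Zfp445, which guards imprinted regions, gave 0.04 ± 0.10 (adjusted p = 0.828) and -0.12 ± 0.10 (adjusted p = 0.458), and Zfp568, which represses a placental promoter of Igf2, gave 0.12 ± 0.14 (adjusted p = 0.606) and 0.14 ± 0.14 (adjusted p = 0.534).

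Of 9 promoter-binding factors listed, 8 were measured; Zfp143 is not analysed here. In WT kidneys 2 of the 8 were called higher, beside 9.17% of all genes, and 7 were above 0, beside 39.8% of all genes, at a median of 0.18. The calls were Zfp131 (above) and Zfp335. Zfp335, a partner of H3K4 methyltransferase complexes, gave 0.49 ± 0.14 (adjusted p = 0.0226) in WT, lost without any one of 5 arrays (all WT arrays but ischemic replicate 3; 0.0586 to 0.0686), and 0.24 ± 0.14 (adjusted p = 0.263) in null kidneys. In null kidneys 4 of 8 were above 0, at a median of 0.03, and Zfp131 alone was called higher, beside 9.86% of all genes. Zfp281, a factor of pluripotent cells, gave 0.23 ± 0.10 (adjusted p = 0.108) and 0.16 ± 0.10 (adjusted p = 0.294). Zfp384 gave 0.30 ± 0.11 (adjusted p = 0.0699) and -0.01 ± 0.11 (adjusted p = 0.97). Zfp410, which activates Chd4, gave 0.13 ± 0.13 (adjusted p = 0.524) and 0.07 ± 0.13 (adjusted p = 0.743), and Chd4 itself differed by -0.03 and -0.17, neither called. Zfp148, a binder of GC-rich promoters, gave -0.10 ± 0.14 (adjusted p = 0.675) and -0.10 ± 0.14 (adjusted p = 0.702). Of its 6 probe sets another was called lower in both genotypes (-0.90 ± 0.15, SE; adjusted p = 0.000626 over all probe sets in WT; -0.53 ± 0.15; 0.0228 in the null). Zfp407 gave 0.06 ± 0.16 (adjusted p = 0.844) and -0.26 ± 0.16 (adjusted p = 0.298); Zfp652 gave 0.04 ± 0.28 (adjusted p = 0.941) and -0.34 ± 0.28 (adjusted p = 0.455).

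Of 11 developmental and cell fate regulators listed, 9 were measured (Zfp423 and Zfp609 were not). In WT kidneys 2 were called higher, Zfp516 and Zfp703, beside 9.17% of all genes, at a list median of 0.13. In null kidneys 1 was called higher, Zfp703, and 2 lower, Zfp467 and Zfp503, at a median of -0.11. Of all genes, 9.86% were called higher and 11.7% lower in null kidneys. Zfp521, which restrains fat and blood cell commitment, had the largest difference of the list that was not called in WT kidneys, at -1.16 ± 0.40 (adjusted p = 0.0556), and gave -0.39 ± 0.40 (adjusted p = 0.564) in the null. Zfp292 gave -0.34 ± 0.15 (adjusted p = 0.136) and -0.11 ± 0.15 (adjusted p = 0.689), and a dimmer probe set of it was called lower in null kidneys (-0.70 ± 0.16, SE; adjusted p = 0.00566 over all probe sets). Zfp608 gave 0.37 ± 0.18 (adjusted p = 0.183) and 0.21 ± 0.18 (adjusted p = 0.476). Zfp217, a chromatin cofactor amplified in cancers, gave 0.09 ± 0.14 (adjusted p = 0.707) and 0.29 ± 0.14 (adjusted p = 0.151), and Zfp462 gave 0.13 ± 0.15 (adjusted p = 0.592) and -0.06 ± 0.15 (adjusted p = 0.833).

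All 10 listed genes of RNA, ribosome and protein handling were measured. In WT kidneys 1 was called higher (Zfp622) and 1 lower (Zfp106), and in null kidneys 1 lower (Zfp106), at medians of 0.09 and 0.07. Of all genes, 19.6% were called in WT and 21.6% in null kidneys. Zfp622, a maturation factor of the large ribosomal subunit, gave 0.38 ± 0.10 (adjusted p = 0.0125) in WT, lost without WT ischemic replicate 2 (0.0585), and 0.19 ± 0.10 (adjusted p = 0.194) in null kidneys. Zfp593, another large-subunit factor, gave 0.53 ± 0.23 (adjusted p = 0.121) and 0.59 ± 0.23 (adjusted p = 0.0774); a dimmer probe set of it was called in WT kidneys at 1.00 ± 0.32 (SE; adjusted p = 0.0491 over all probe sets). Zfp598, the ubiquitin ligase that senses collided ribosomes, gave 0.21 ± 0.13 (adjusted p = 0.27) and 0.21 ± 0.13 (adjusted p = 0.275). Zfp91, a ubiquitin ligase of NF-kB signalling, gave -0.29 ± 0.10 (adjusted p = 0.0557) and -0.05 ± 0.10 (adjusted p = 0.813). The remaining members of the list, Zfp207, Zfp326, Zfp346, Zfp638 and Zfp830, lay between -0.24 and 0.25 in both genotypes, none called; a dimmer probe set of Zfp638 was called lower in WT kidneys (-0.58 ± 0.17, SE; adjusted p = 0.0317 over all probe sets).

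Of 34 listed genes of the corepressor machinery that KRAB zinc finger proteins recruit, 32 were measured. In WT kidneys 2 were called higher and 5 lower, beside 19.6% of all genes, and in null kidneys 3 higher and 2 lower, beside 21.6%, at medians of 0.01 and -0.01. Trim28, the corepressor itself, rose by 0.39 ± 0.11 (SE; adjusted p = 0.0184) in WT and 0.40 ± 0.11 (0.0151) in null kidneys. Morc2a, a compaction ATPase of the HUSH pathway, rose by 0.58 ± 0.10 in both (0.0011 and 0.000941). Atf7ip, the partner that stabilises SETDB1, fell by 0.87 ± 0.12 (0.000166) in WT and by 0.85 ± 0.12 (0.000192) in null kidneys. Setdb1 itself was not called, at -0.02 ± 0.15 and -0.13 ± 0.15. Cbx5, which encodes HP1 alpha, fell by 0.46 ± 0.11 (0.00642) in WT and by 0.42 ± 0.11 (0.0102) in null kidneys. Cbx1, Atrx and Tasor were called lower in WT kidneys alone, and Mphosph8, a HUSH subunit, was called higher in null kidneys alone.

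Related names were counted the same way. Of all genes, 9.17% were called higher and 10.5% lower in WT kidneys, and 9.86% and 11.7% in null kidneys. The medians of all genes were -0.09 in WT and -0.07 in null kidneys. Of 33 Zbtb genes, 5 were called higher and 3 lower in WT, and 2 higher and 4 lower in null kidneys. Of 17 Zscan and Zkscan genes, SCAN-domain relatives of the KRAB class, 0 were called higher and 4 lower in each genotype, at medians of -0.29 in WT and -0.19 in null kidneys. Of 25 genes named Zfp with a number and further letters, 2 were called higher and 4 lower in WT and 2 higher and 2 lower in null kidneys, at medians of -0.30 and -0.13. Of 13 Zc3h genes, 1 was called higher in each genotype and none lower.

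Many members are neighbours. In the RefSeq gene order, 119 of the 249 lay in 35 runs of members with at most 1 other protein-coding gene between neighbours, and 130 lay outside runs. Members in runs were called 5 higher and 13 lower in WT kidneys (15.1%, median -0.24) and 5 higher and 15 lower in null kidneys (16.8%, median -0.18). Members outside runs were called 8 higher and 6 lower in WT (10.8%, median -0.10) and 8 higher and 12 lower in null kidneys (15.4%, median -0.07). Of all genes, 19.6% were called in WT and 21.6% in null kidneys, at medians of -0.09 and -0.07. Members in runs were also dimmer, with a median level percentile among all genes of 31.65, against 37.63 outside runs. Neighbouring members can share sequence through duplication, so a probe set may also read a neighbour's transcript.

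The longest run held 16 members on chromosome 17, from Zfp677 to Zfp946, and Zfp52 and Zfp948, whose promoters are printed above, lie beside each other within it. In WT kidneys those 2 were its only calls, both higher. In null kidneys they were called higher again, and Zfp229 and Zfp943 lower; Zfp943 gave -0.36 ± 0.10 (adjusted p = 0.0211) in null, lost without null ischemic replicate 3 or null sham replicate 1 (0.0558 to 0.0803), and -0.24 ± 0.10 (adjusted p = 0.127) in WT kidneys. The first 7 genes, up to Zfp983, were above 0 in 7 of 7 cases in WT and 6 of 7 in null kidneys, whereas of the last 9 genes 7 were below 0 in WT and 9 in null kidneys. This split of the run was chosen after its values were seen. Zfp983 passed the filter through ischemic arrays alone, so its sign carries that selection. Zfp54 and Zfp53, in the first stretch, gave 0.30 ± 0.18 (adjusted p = 0.266) and 0.46 ± 0.18 (adjusted p = 0.093) in WT kidneys, and Zfp760, the first gene of the second stretch, gave -0.41 ± 0.17 (adjusted p = 0.109).

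**Figure D5:**
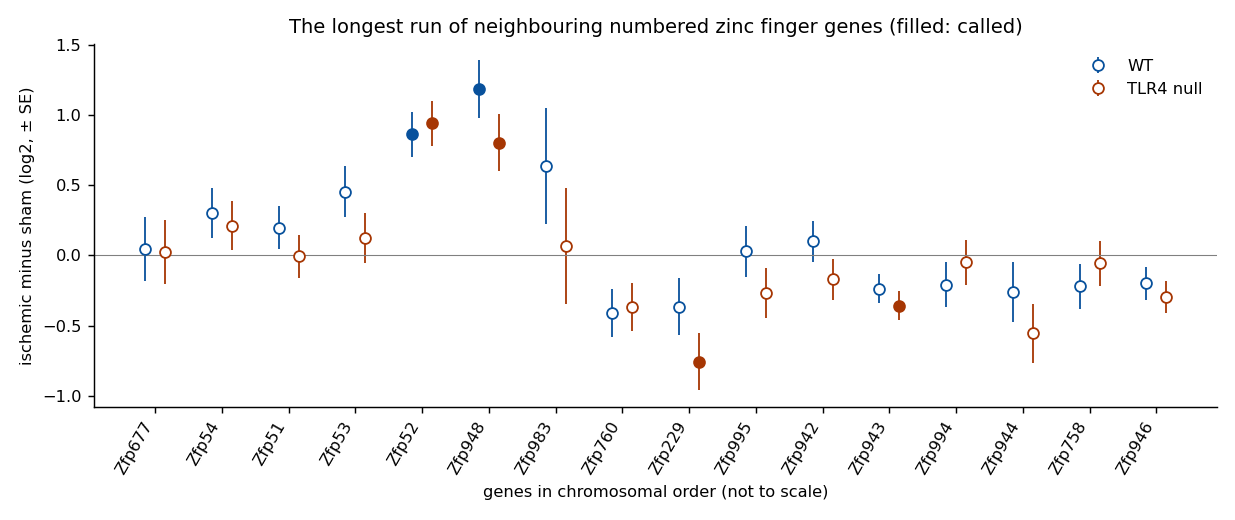
Log2 difference, ischemic minus sham, with its SE (y axis) of the 16 members of the longest run in chromosomal order (x axis, not to scale), WT in blue and TLR4 null in orange, filled where called. The points of Zfp52 and Zfp948 stand highest, at 0.86 and 1.19 in WT, and 9 of 9 null points from Zfp760 on lie below 0.

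Another run on chromosome 17 holds Zfp871, Zfp811 and Zfp799. Zfp871 and Zfp799 were both called lower in both genotypes, while the dim Zfp811 between them gave -0.04 ± 0.43 (adjusted p = 0.968) in WT and -0.75 ± 0.43 (adjusted p = 0.253) in null kidneys.

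Where a member had more than 1 probe set past the filter, the sets often disagreed. 93 members had several. Of the 17 WT-called members among them, 9 had every probe set on the same side of 0, 3 had another probe set called the same way, and 1 (Zfp763) had one called the opposite way. Of the 19 null-called members with several, 14 had all on the same side, 3 had another called the same way, and none had one called the opposite way. The called members with a set on the other side of 0 were Zfp24, Zfp84, Zfp106, Zfp266, Zfp383, Zfp516, Zfp763 and Zfp871 in WT and Zfp24, Zfp142, Zfp420, Zfp592 and Zfp618 in null kidneys. When a gene's probe sets were averaged, 20 of the 32 WT calls and 32 of the 40 null calls were kept. Among the genes named here, averaging ended the WT calls of Zfp64, Zfp84, Zfp106, Zfp142, Zfp266, Zfp367, Zfp383, Zfp451, Zfp516, Zfp618 and Zfp871 and turned Zfp763 to 0.22. It ended the null calls of Zfp106, Zfp142, Zfp420, Zfp592, Zfp618, Zfp945 and Zfp961. Without probe sets of the types that can read several transcripts, the call of Zfp142 was lost in both genotypes, those of Zfp516 and Zfp622 in WT and those of Zfp420 and Zfp467 in null kidneys.

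Other settings ended calls too. Scaling to one median kept 20 of the 32 WT and 27 of the 40 null calls. Among the genes named here, it ended the WT calls of Zfp24, Zfp84, Zfp251, Zfp266, Zfp369, Zfp451, Zfp618, Zfp810 and Zfp871 and the null calls of Zfp24, Zfp106, Zfp251, Zfp592, Zfp618, Zfp937 and Zfp943. With only the arrays of one genotype in the fit, 21 of the 40 null calls were kept. The null calls of Zfp106, Zfp142, Zfp229, Zfp251, Zfp592, Zfp618, Zfp623, Zfp647, Zfp937, Zfp943 and Zfp961 were then lost, as was the WT call of Zfp810.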

How the data were processed

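Each array was deposited as 1 intensity per probe set (45101 probe sets, 64 of them controls), computed by the authors in MAS5 as their processing notes state; which version and scaling target they used is not given here. Signals stayed on the deposited scale, and 15, their 20th percentile, was added before log2. One limma (3.58.1, R 4.3.3) model with 4 group means (8 residual degrees of freedom, eBayes with trend) was fitted to 14322 genes, and adjusted p is Benjamini-Hochberg over all of them; errors are SE. The precision is limited by 3 arrays per group. Named members are the 10 largest called rises and falls per ischemic comparison whose groups do not overlap, the 5 smallest interaction p, the role lists, and those marked as chosen after their values were seen. Zfp811, Zfp943, Zfp53, Zfp54 and Zfp760 were named outside these rules, also after their values were seen. The totals for named members under other settings leave them out. Members and lists were chosen with earlier results of these data known. Neighbours came from the RefSeq gene table, which matched all 249 members, and promoters from RefSeq (GRCm38.p6). Alternatives were 2 scalings, 2 pseudocounts, 2 filters, 2 probe set rules, 4 model forms and 12 fits without 1 array. The fit was tested on simulated data.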

Additional observations from a re-analysis of the deposited data

How the results depend on the processing

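Of the counts of members called, these moved by more than 1.5 times. With arrays scaled to one median, 8 members were lower in WT and 15 in null kidneys. With array weights, 29 were lower in WT kidneys, and genotype called 1 member in sham kidneys (Zfp811) and 2 in ischemic kidneys (Zfp503 and Zfp697). With only the groups compared in the fit, 11 were lower in null kidneys. Leaving out each array in turn gave 7 to 16 higher and 11 to 23 lower in WT, 9 to 15 higher and 12 to 27 lower in null kidneys, 0 to 2 for genotype in ischemic kidneys, and 0 for genotype in sham kidneys and for the interaction. The replicate numbers are not stated to pair the animals. Deviations from group means correlated by -0.0624 to 0.104 between same-numbered arrays and by -0.129 to 0.143 between others. These values cannot show whether animals were paired. With the replicate block the calls were 14 higher and 19 lower in WT and 14 higher and 20 lower in null kidneys. That kept 29 of 32 and 33 of 40 calls. The causes were not tested.

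For 104 results on named members, 2315 of 2478 alternative values kept direction and side of the threshold, 108 lost the call, 22 gained it and 33 turned direction. Many of these results were not called, and such a value counts as kept while it stays uncalled. Without each array in turn, 6 of 13 WT rises, 7 of 19 WT falls, 7 of 13 null rises and 9 of 27 null falls stayed called. Through all settings in which they were tested, 4, 2, 6 and 7 of them did. Turned with averaged probe sets were Zfp763 (0.22), Zfp445 (-0.078), Zfp207 (-0.055) and Zfp830 (-0.16) in WT, and Zfp462 (0.18), Zfp346 (0.20) and Zfp91 (0.19) in null kidneys. Without probe sets of the types that can read several transcripts, Zfp516 in WT (-0.067) and Zfp420 in null kidneys (-0.38) turned. In null kidneys, array weights turned Zfp148 (0.10) and Zfp91 (0.022), and median scaling turned Zfp384 (0.0087). The ranges without 1 array crossed 0 for Zfp445 (-0.029 to 0.090), Zfp932 (-0.89 to 0.28), Zfp407 (-0.020 to 0.15), Zfp830 (-0.032 to 0.092), Zfp516 (-0.10 to 1.00), Zfp652 (-0.078 to 0.12) and Zfp568 (-0.011 to 0.19) in WT kidneys, and for Zfp410 (-0.00033 to 0.21), Zfp384 (-0.087 to 0.077), Zfp462 (-0.17 to 0.030), Zfp148 (-0.28 to 0.014), Zfp292 (-0.22 to 0.035), Zfp638 (-0.16 to 0.031) and Zfp91 (-0.13 to 0.063) in null kidneys. The interaction of Zfp516 ran from -1.17 to 0.027; its other probe set stood for the gene in some of these fits. Of the 76 members in the dimmest group, 3 were called in each genotype, a share near that of all genes there.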

Other observations

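The largest WT difference of any member was not a call. Zfp691 gave -1.49 ± 0.51 (SE; limma, adjusted p = 0.0506) in WT and -0.39 ± 0.51 (0.658) in null kidneys, with a mean signal of 111 ± 86.6 (SD, n = 3) in WT ischemic against 249 ± 28.9 in WT sham kidneys. Zfp1 gave 1.15 ± 0.41 (SE; adjusted p = 0.0622) in WT and 1.04 ± 0.41 (0.0873) in null kidneys, with a mean signal of 257 ± 34.1 (SD, n = 3) in WT ischemic against 131 ± 94.8 in WT sham kidneys. Both genes were named after their values were seen.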
